A study of Mus musculus with 14 samples.

Results

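The nuclear genes of oxidative phosphorylation were examined in haematopoietic stem cells (HSCs) sorted by their calcium level. Members were chosen by name: labels that begin with Ndufa, Ndufb, Ndufc, Ndufs or Ndufv (complex I), that are Sdha, Sdhb, Sdhc or Sdhd (complex II), that begin with Uqcr (complex III), with Cox4, Cox5, Cox6, Cox7 or Cox8 (complex IV), or with Atp5 (complex V). In all 14 libraries 107 labels matched. After the numbered copies of 4 names were reduced to the copy with the highest mean, 101 of 48714 labels were left, with 45 in complex I, 4 in complex II, 9 in complex III, 18 in complex IV and 25 in complex V. Of these, 84 had a mean of 1 RPKM or more (reads per kilobase, relative to the total reads of the library) and entered the test: 43, 4, 8, 12 and 17 in the order of the complexes. The other 17 had lower means and were not tested.

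Both groups were bone marrow HSCs of C57BL/6 mice. The [Ca2+]high (calcium-high) and [Ca2+]low (calcium-low) populations had 7 libraries each, numbered 1 to 7, and each library was made from 100 sorted cells. The labels give no age, no further sort gate and no statement that libraries came from separate animals, so the p-values measure the spread between these samples, which may be technical. The title of the series names cytoplasmic calcium as a regulator of HSC dormancy. The comparison asks whether transcripts of the respiratory chain differ with the level of calcium.

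Oxidative phosphorylation makes ATP in the inner mitochondrial membrane. Complex I (NADH dehydrogenase) and complex II (succinate dehydrogenase, which is also an enzyme of the citric acid cycle) pass electrons to ubiquinone. Complex III passes them to cytochrome c and complex IV to oxygen. Complexes I, III and IV pump protons, and complex V (ATP synthase) uses the proton gradient. All subunits of complex II, and most of the others, are encoded in the nucleus, and the rest in mitochondrial DNA. Quiescent HSCs are known for a largely glycolytic metabolism with low mitochondrial activity.

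Several of these genes hold letters that match the motifs of the same transcription factors, and short stretches with such matches are printed here. NRF1 (nuclear respiratory factor 1), GABP of the ETS family (also called NRF2) and YY1 are known regulators of respiratory genes. The motifs searched, on both strands, were GCGCANGCG for NRF1, CCGGAAG for ETS factors and AAGATGGCG for YY1. No motif contains another, and a palindromic NRF1 match counts on both strands. The stretches come from the RefSeq promoter table (GRCm38.p6), run 5′ to 3′ on the strand of the gene, and have the motif in capitals (for an ETS match on the opposite strand, its complement).
Sdha, NRF1, chr13:74350320-74350348, minus strand: cgtttacaggGCGCAGGCGcaccaccact
Sdha, NRF1, chr13:74350277-74350305, minus strand: ggggcgtgttGCGCAGGCGcagaatcttc
Sdhd, NRF1, chr9:50603911-50603939, minus strand: ttcgctggggtGCGCACGCGcggtggcag
Sdhd, ETS, chr9:50603881-50603905, minus strand: cgtctcctgcCTTCCGGttcacgct
Ndufa5, NRF1, chr6:24527699-24527726, minus strand: tgtgtgagctGCGCAGGCGcaaatctac
Cox6a1, NRF1, chr5:115349057-115349085, minus strand: cggataaagtGCGCAGGCGctggagttcc
Atp5k, NRF1 (both strands), chr5:108434431-108434459, minus strand: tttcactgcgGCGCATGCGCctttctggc
Atp5j, YY1, chr16:84835045-84835073, minus strand: agtgtaggaAAGATGGCGgagtcttagct

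Each stretch comes from a window around a RefSeq start site. The GENCODE spans of Ndufa5 and Atp5j begin further upstream, so these stretches lie inside the annotated gene, and those of Atp5k and the second of Sdha overlap the start of the span. These examples cover complexes I, II, IV and V, and were chosen after their letters were seen. Of the 84 tested members, 72 matched the promoter table, 3 of them by an older symbol. In windows from 250 bases before to 50 after a start site, 21 of 72 members (29.2%) held the NRF1 motif, against 7.03% of 27025 genes in the table and 17.3% of the 7562 tested genes that matched it. The ETS motif was in 17 members (23.6%), against 9.93% of all genes and 22.7% of the tested genes. The YY1 motif was in 8 members (11.1%), against 1.64% and 4.28%. By complex, the NRF1 motif was in 9 of 38 matched members of complex I, 1 of 10 of complex IV and 7 of 16 of complex V. A match is a run of letters, not a bound site.

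The tested members were transcribed at higher levels than most genes. Their median of mean RPKM was 13.7, against 4.11 for all 9921 tested genes. Complex IV had the highest median at 26.9 RPKM, then complex V at 21.4, complex II at 17.2, complex III at 13.5 and complex I at 9.86 RPKM. Single genes ran from 1.21 RPKM for Ndufaf4, an assembly factor of complex I, to 85.0 RPKM for Ndufa4. The letters of Ndufa4 place it in complex I, while the protein is known as a component of complex IV. Other high members were Atp5b, the catalytic beta subunit of ATP synthase, at 79.6 RPKM, Atp5g3, which encodes the membrane ring subunit c, at 60.3 RPKM, and Cox6a1, the widely expressed form of complex IV subunit VIa, at 53.5 RPKM. Succinate dehydrogenase ran from 7.23 RPKM for Sdhc to 27.9 RPKM for Sdha.

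**Figure D1:**
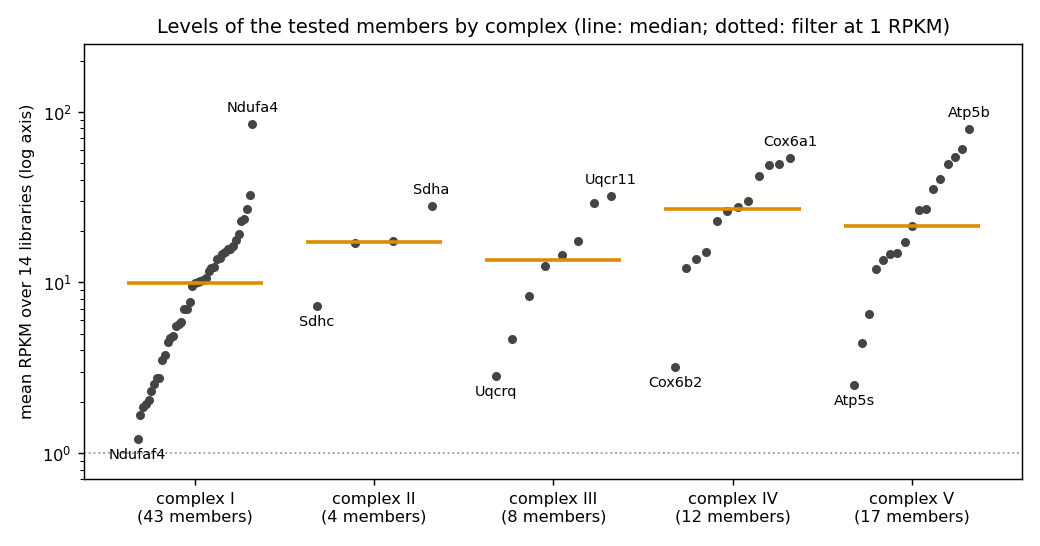
Mean RPKM over 14 libraries (log axis) of each tested member (points), in ascending order within each complex, with the median of each complex as a line and the filter at 1 RPKM dotted. Complex I spans from Ndufaf4 at 1.21 to Ndufa4 at 85.0 RPKM, and the medians of complexes IV and V, 26.9 and 21.4 RPKM, lie above that of complex I at 9.86.

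The members under the filter were mostly isoforms of other tissues and pseudogene labels. Of the 17, 12 were listed at 0 in all libraries: 9 labels of pseudogenes, Ndufa4l2, Cox7b2 and Cox8c. How reads that match several loci were counted is not known, so the levels of Uqcrh, Atp5k, Atp5l and Atp5c1, which share sequence with such pseudogenes, and of the 4 names with numbered copies are uncertain. The hypoxia-associated and lung isoform Cox4i2 was at 0.0380 to 0.696 RPKM in calcium-high and 0.0293 to 0.201 RPKM in calcium-low libraries, while its housekeeping counterpart Cox4i1 was at 47.5 ± 10.1 and 51.7 ± 11.2 RPKM (SD, n = 7). The muscle isoforms Cox6a2, Cox7a1 and Cox8b were at 0 to 0.104, 0 to 1.14 and 0 to 0.0782 RPKM. Their widely expressed counterparts Cox6a1, Cox7a2 and Cox8a averaged 51.6, 21.3 and 41.8 RPKM in calcium-high libraries. Ndufaf5, an assembly factor, was at 0.246 to 1.54 RPKM. The 13 protein-coding genes of mitochondrial DNA were listed at 0 in all libraries, as were both mitochondrial ribosomal RNAs, so these files give no level for the mitochondrial share of complexes I, III, IV and V.

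No member passed the test between calcium-high and calcium-low HSCs. By limma on log2(RPKM + 1) with 7 libraries a group, 0 of 84 members were called at an adjusted p under 0.05 (Benjamini-Hochberg over all genes), and 0% of all tested genes were. At an unadjusted p under 0.05, 1 member, Ndufa5, was found, beside 669 (6.74%) of all genes. With the replicate number as a block, 0 members were called, against 0.917% of all genes, and 3 members, Ndufa5, Cox7c and Ndufv1, had an unadjusted p below that level, as did 13.9% of all genes. The smallest adjusted p of a member was 0.722 without the block and 0.121 with it, both for Ndufa5. The median standard error of a member's log2 difference was 0.17 without the block and 0.14 with it. In all, 74 of 84 members (88.1%) had a lower mean in calcium-high HSCs, where 57.8% of all genes did. The median log2 difference of the members was -0.11 and that of all genes -0.03. These counts moved with the filter, the scaling and the fit. With a filter at a mean of 5 RPKM, 59 of 65 members (90.8%) were lower, where 65.7% of all genes were. The medians were then -0.11 for the members and -0.06 for all genes. With median-of-ratios scaling 69 members (82.1%) were lower, where 51.4% of all genes were, and with upper-quartile scaling 64 (76.2%), where 46.0% of all genes were. By limma-voom on the recovered reads 47 members (56.0%) were lower, where 41.4% of all genes were, with a median of -0.02 against 0.04 for all genes.

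In the deposited scaling the median of each complex was below 0, by less than the spread between libraries. The median log2 difference was -0.11 for complex I (37 of 43 members lower), -0.05 for complex II (3 of 4), -0.10 for complex III (5 of 8), -0.14 for complex IV (12 of 12) and -0.11 for complex V (17 of 17). Averaged over its members, complex I was at 3.10 ± 0.18 log2(RPKM + 1) in calcium-high and 3.21 ± 0.27 in calcium-low libraries. Complex II was at 4.02 ± 0.18 against 4.05 ± 0.27, and complex III at 3.55 ± 0.15 against 3.64 ± 0.42. Complex IV was at 4.48 ± 0.29 against 4.65 ± 0.25, and complex V at 4.31 ± 0.24 against 4.43 ± 0.22 (SD over 7 libraries). The ranges of the groups overlapped in every complex. By limma-voom with library quality weights, the medians were 0.00 for complex I (21 of 43 members lower) and -0.02 for II (3 of 4). They were 0.01 for III (4 of 8), -0.03 for IV (10 of 12) and -0.01 for V (9 of 17). With upper-quartile scaling complex II had a median of 0.00 with 2 of 4 lower, complex IV -0.09 with 12 of 12 and complex V 14 of 17 lower.

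Compared by replicate number, the complexes were lower in calcium-high libraries in pairs 1 to 3 and level or higher in most of pairs 4 to 7. The mean log2 difference over all 84 members was -0.61 in pair 1, -0.19 in pair 2 and -0.53 in pair 3. It was 0.00 in pair 4, 0.36 in pair 5, 0.19 in pair 6 and -0.04 in pair 7. In pair 3 all 84 members were lower, in pair 1, 79 and in pair 2, 68. In pair 5 only 14 were lower, and in pair 6, 15. All genes shifted the same way in these pairs: 76.6%, 70.0% and 77.2% were lower in pairs 1, 2 and 3. In pairs 5 and 6, 31.5% and 26.7% of all genes were lower. The median difference of all genes was -0.25, -0.11, -0.22, 0.02, 0.12, 0.16 and 0.10 in pairs 1 to 7. In pair 6 the median of the members was 0.16 as well. No member was lower in all 7 pairs or higher in all 7: 10 were lower in 6 pairs, 17 in 5, 33 in 4, 21 in 3 and 3 in 2.

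**Figure D2:**
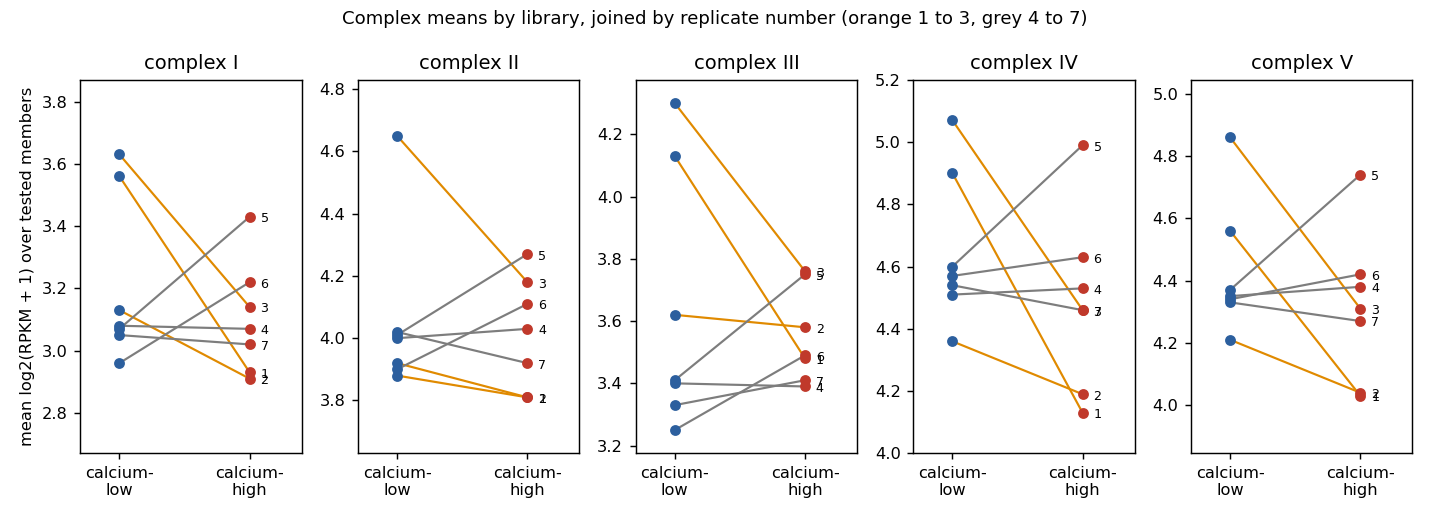
Mean log2(RPKM + 1) over the tested members of each complex in each library, calcium-low (blue) and calcium-high (red), joined by replicate number (orange for replicates 1 to 3, grey for 4 to 7); the panels have different origins and the same span. The orange lines slope down in every complex, with calcium-low replicates 1 and 3 above most other libraries (in complex II only replicate 3), while the grey line of pair 5 slopes up in each.

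The complexes lay furthest apart in pair 1, where complex II stood off from the others, and closer together in the other pairs. In pair 1, complex I differed by -0.63, complex III by -0.65, complex IV by -0.77 and complex V by -0.54 log2 units, while complex II differed by -0.07, with 2 of its 4 members lower. In pair 3 the 5 complexes lay between -0.47 (complex II) and -0.61 (complex IV), and in pair 5 between 0.26 (complex II) and 0.39 (complex IV). In pair 6, complexes I, II and III were higher by 0.26, 0.21 and 0.24, and complexes IV and V by 0.06 and 0.09. In pair 2 complex I differed by -0.23 and complex III by -0.04, and in pair 7 complex II differed by -0.11 and complex III by 0.08. Subunits of complex I alone, without its assembly factors and Ndufa4, gave -0.65, -0.51 and 0.39 in pairs 1, 3 and 5.

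The 3 libraries in which most members were highest also had the largest totals of listed RPKM. Of 84 members, 37 were highest in calcium-low replicate 3, 23 in calcium-low replicate 1 and 19 in calcium-high replicate 5. Their RPKM over all labels summed to 109843, 114884 and 113735, and those of the other 11 libraries to 81166 to 101936. With each library scaled by the median of ratios over genes, the mean difference over members was -0.33 in pair 1, -0.07 in pair 2, -0.25 in pair 3, 0.21 in pair 5 and -0.16 in pair 7. The mean in pair 4 was then -0.03 and in pair 6 0.01. Members took 0.691% of the reads in listed genes in calcium-low replicate 3 and 0.45% to 0.58% in the other libraries.

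**Figure D3:**
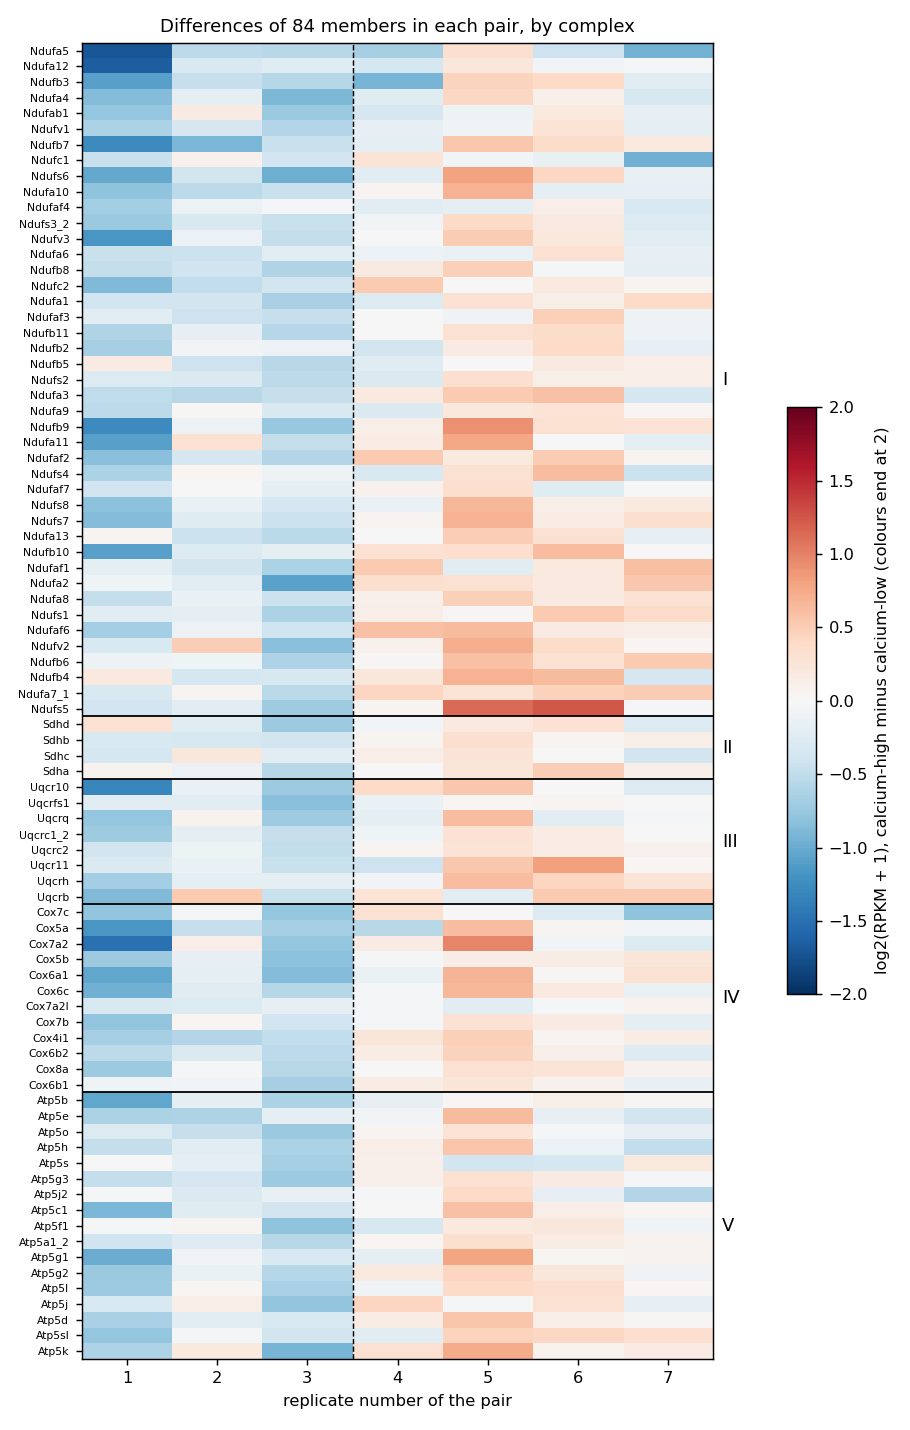
Difference in log2(RPKM + 1), calcium-high minus calcium-low, of each of 84 members (rows, sorted by log2 fold change within complexes I to V) in each pair of libraries with the same number (columns); blue is lower and red higher in calcium-high, colours end at 2 and the dashed line parts replicates 1 to 3 from 4 to 7. Pair 3 is blue for all 84 members and pair 5 red for most, and no row has one colour throughout.

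The library numbers fell into 2 sets, listed apart in the series and different in depth: listed genes had 3478209 to 7218394 reads in replicates 1 to 3, against 8100902 to 10053223 in replicates 4 to 7. The lowest tested member still had 10 to 34 reads in each library. The labels do not say whether the sets were prepared apart. In replicates 1 to 3 alone, 84 of 84 members were lower in calcium-high HSCs, with a median log2 difference of -0.44, against -0.20 for all genes, of which 83.2% were lower. By limma 0 members were called there, as were 0% of all genes, and 27 of 84 had an unadjusted p under 0.05, as did 11.6% of all genes. With the replicate block there, 54 of 84 did, against 23.7% of all genes, and the smallest adjusted p of a member was 0.169. In replicates 4 to 7 alone, 70 of 84 members had a higher mean in calcium-high HSCs, with a median of 0.14, against 0.11 for all genes, of which 26.2% were lower. By limma 0 members were called, against 8.14% of all genes, and 13 of 84 were under 0.05 unadjusted, against 25.9% of all genes. Ndufb6 came nearest, with an adjusted p of 0.0521. It encodes an accessory subunit of complex I and was at 7.12 to 9.63 RPKM in calcium-high and 5.47 to 7.02 RPKM in calcium-low libraries.

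In replicates 4 to 7 with the replicate number as a block, 2 of 84 members were called higher. That was a smaller share than the 5.06% of all genes called higher there. Both were accessory subunits of complex I. Ndufa2 (chromosome 18) was at 26.9, 33.3, 26.7 and 24.7 RPKM in calcium-high and 21.2, 26.7, 23.4 and 16.7 RPKM in calcium-low replicates 4 to 7, higher in 4 of 4 pairs (limma log2 difference 0.34, adjusted p = 0.0418). Ndufa7_1, the highest of 4 numbered copies, was at 5.79, 6.81, 6.84 and 4.84 against 4.02, 5.44, 4.71 and 3.12 RPKM, also higher in 4 of 4 pairs (0.42, adjusted p = 0.0266). In replicates 1 to 3 both lay lower in calcium-high libraries on average, by -0.46 and -0.26. These members were singled out with their values in view.

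Set against all genes, the members outside complex II lay mostly lower in replicates 1 to 3, and the members lay level in replicates 4 to 7. With median-of-ratios scaling over all 14 libraries and a fit within each set, 77 of 84 members were lower in replicates 1 to 3. Their median was -0.21, against 0.00 for all genes. Complex II had a median of 0.03 there, with 3 of 4 members higher. By limma 4 of 84 members had an unadjusted p under 0.05 there, as did 4.05% of all genes. The smallest adjusted p of a member was 0.928. In replicates 4 to 7, 46 members were higher and 38 lower, with a median of 0.01 and of 0.00 for all genes. The difference between the sets in the effect of calcium was tested as an interaction in limma, first without the block. All 84 members were more negative in replicates 1 to 3, with a median of -0.60, against -0.31 for all genes. None passed after adjustment (smallest adjusted p = 0.105, 0% of all genes called), while 43 members (51.2%) had an unadjusted p under 0.05, as did 28.6% of all genes.

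With the replicate number as a block in the interaction, a fit added after the first was seen, 3 members passed, and 1.66% of all genes did. Cox4i1 is a nuclear-encoded subunit of complex IV, Ndufb7 an accessory subunit of complex I and Ndufaf2 an assembly factor of complex I. Cox4i1 was at 44.9, 31.7 and 43.2 RPKM in calcium-high and 72.3, 47.9 and 61.6 RPKM in calcium-low replicates 1 to 3. In replicates 4 to 7 it was at 48.5, 65.5, 50.4 and 48.6 against 40.9, 46.9, 48.3 and 43.8 RPKM. It was lower in all of pairs 1 to 3 and higher in all of pairs 4 to 7, and its log2 difference was more negative in replicates 1 to 3 by -0.81 (SE 0.14, limma adjusted p = 0.0416; 0.105 without the block). Ndufb7 had -1.11 (SE 0.22, adjusted p = 0.0463) and Ndufaf2 -0.91 (SE 0.19, adjusted p = 0.0481). These calls rested on the pairs and the scaling: with the block and any one of pairs 1, 3, 4, 5, 6 or 7 left out, 0 members were called, without pair 2, 43 were (16.5% of all genes), and with median-of-ratios scaling 0 were (smallest adjusted p = 0.249).

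The groups overlapped for every member over the 14 libraries, and did so for all but 0.141% of all genes. In replicates 1 to 3 every calcium-high library lay below every calcium-low library for 25 members (29.8%), against 19.7% of all genes. In replicates 4 to 7 every calcium-high library lay above for 7 members (8.33%), against 13.8% of all genes, and below for 0, against 3.1%. Members were lower in all of pairs 1 to 3 in 63 cases (75.0%, all genes 47.1%) and higher in all of pairs 4 to 7 in 17 (20.2%, all genes 27.0%).

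**Figure D4:**
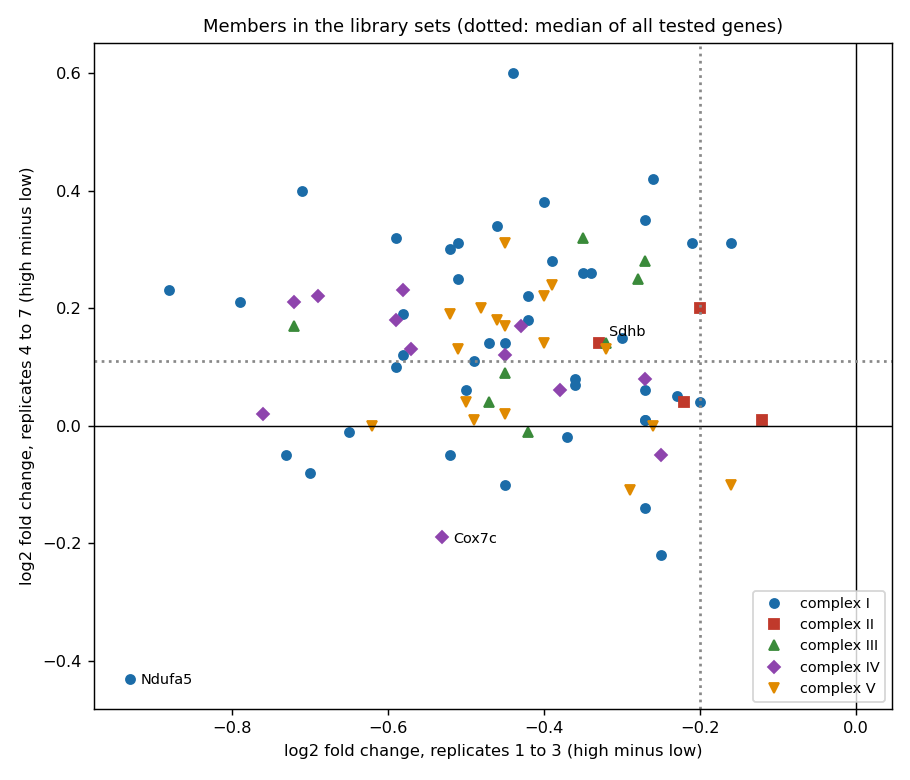
Log2 fold change (calcium-high minus calcium-low) of each of 84 members in replicates 1 to 3 (horizontal) and 4 to 7 (vertical), by complex; dotted lines are the medians of all tested genes, -0.20 and 0.11. All members lie left of 0 and 70 lie above 0, while Ndufa5 and Cox7c lie below 0 on both axes.

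Calcium-low replicate 3 also stood apart in markers of other cells. Neutrophil markers summed to 771 RPKM there, against 14.4 to 44.4 in the rest of the group and 9.80 to 97.7 in calcium-high. Cycling-cell markers summed to 329 RPKM, against 8.89 to 25.5 and 5.57 to 31.6. Erythroid markers summed to 337 RPKM, against 130 to 172 in the rest of the group and at most 231 in calcium-high, with Hbb-b1 at 0 in all libraries. Much of this sum was Car2, at 114 to 190 RPKM in calcium-low libraries, where Alas2 reached 1.56, Hbb-bs 2.40, Hbb-bt 29.6 and Car1 120 RPKM. Megakaryocyte markers, at 33.7 RPKM, were highest of the group in calcium-low replicate 3. Markers of T and NK cells (11.7 RPKM) and of B and plasma cells (3.59 RPKM) were lowest of the group in that library. HSC markers, 11 of 11 detected, summed to 174 RPKM in that library and to 178 in calcium-high replicate 3. Without replicate 3 they summed to 288 to 360 RPKM in calcium-high and 209 to 273 in calcium-low libraries. In all, 9 of 11 had a higher mean in calcium-high HSCs, and Procr, Slamf1 and Fgd5 were called by limma with the block. The part of these cells in the member levels was not tested. With both libraries of replicate 3 left out, limma called 0 members. Of all 9921 tested genes, it called 78 higher and 41 lower in calcium-high HSCs. In this fit 58 of 84 members had a lower mean in calcium-high HSCs, with a median log2 difference of -0.05. All genes then had a median of 0.01, with 47.8% lower. Complex IV had 11 of 12 lower (median -0.07), complex V 12 of 17 (-0.05) and complex I 29 of 43 (-0.04). Without calcium-low replicate 3 alone the members had a median of -0.05 (54 lower), without calcium-low replicate 1 of -0.08 (62 lower) and without calcium-high replicate 5 of -0.18 (72 lower). In bulk samples, fewer cells of a type and less RNA per cell cannot be told apart.

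Complex I had the member with the largest difference. Ndufa5, an accessory subunit of the peripheral arm (GRCm38 chromosome 6, 24518666 to 24528013), had a lowest, median and highest value of 0.769, 2.16 and 2.88 RPKM in calcium-high libraries. In calcium-low libraries these were 1.50, 2.39 and 9.35 RPKM. The groups overlapped, and the value of 9.35 RPKM was calcium-low replicate 1. The log2 difference was -0.64 (SE 0.28, limma adjusted p = 0.722; 0.121 with the block), lower in 6 of 7 pairs and the same way in both library sets (-0.93 and -0.43).

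The catalytic core of complex I had small differences as well. Its 7 tested subunits had a median log2 difference of -0.06, with 6 lower, and a median of -0.42 in replicates 1 to 3 and 0.22 in replicates 4 to 7. Ndufv1, which binds the FMN that takes electrons from NADH, was at 8.93, 11.5 and 13.5 RPKM (lowest, median, highest) in calcium-high and at 9.67, 13 and 18.3 RPKM in calcium-low libraries. The difference of -0.25 (SE 0.14) did not pass by limma (adjusted p = 0.817; 0.343 with the block). Ndufs1, the largest iron-sulfur subunit, was at 3.98, 4.61 and 8.64 against 2.89, 3.93 and 14 RPKM, and its log2 difference was 0.00 (SE 0.28). By library set its values did not overlap: replicates 1 to 3 held 6.40 to 14 RPKM, and replicates 4 to 7 held 2.89 to 4.61 RPKM.

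The 29 accessory subunits of complex I had a median of -0.11, with 25 lower. Ndufs5, which sits on the intermembrane side, had the largest positive difference, 0.16 (SE 0.21, limma adjusted p = 0.992), at 4.18, 5.23 and 8.25 RPKM in calcium-high and 2.90, 4.80 and 10.3 RPKM in calcium-low libraries. Its sign turned between the sets, -0.44 in replicates 1 to 3 and 0.60 in replicates 4 to 7. The 6 tested assembly factors (names that begin with Ndufaf), which are not part of the finished complex, had a median of -0.06, with 5 lower. Ndufa4 was at 59.8, 75.9 and 101 RPKM against 70.7, 86.9 and 151 RPKM, a difference of -0.29 (SE 0.17, limma adjusted p = 0.836; 0.429 with the block).

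Complex II, the one complex with no mitochondrially encoded subunit, had the smallest median difference. Sdha, the flavoprotein that oxidises succinate (chromosome 13, 74322254 to 74350280), was at 22.3, 25.4 and 33.7 RPKM in calcium-high and 17.7, 22.5 and 49.9 RPKM in calcium-low libraries, a difference of 0.03 (SE 0.19). Sdhb, the iron-sulfur subunit, was at 11.7, 18.2 and 22.2 against 14.8, 16.8 and 24.9 RPKM (-0.06, SE 0.14). The membrane anchors were Sdhc, at 5.27, 7.18 and 9.35 against 5.85, 7.24 and 9.77 RPKM (-0.05, SE 0.13), and Sdhd, at 10.6, 15.9 and 21.2 against 9.92, 18.4 and 26.8 RPKM (-0.07, SE 0.19). All 4 overlapped between groups and were highest in calcium-low replicate 3. By limma the adjusted p was 0.998 for each of the 4 without the block and 0.846 to 0.937 with it.

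Complex III had 5 of 8 tested members lower. Uqcrfs1, the Rieske iron-sulfur protein, was at 6.20, 7.52 and 8.96 RPKM in calcium-high and 5.90, 7.36 and 16.7 RPKM in calcium-low libraries, a difference of -0.18 (SE 0.17, limma adjusted p = 0.977; 0.497 with the block). Its highest value was again calcium-low replicate 3. The small accessory subunits Uqcr10 and Uqcr11 were at 7.06, 9.23 and 21.3 against 8.85, 13.9 and 18.8 RPKM (-0.21, SE 0.22) and at 25.4, 31.0 and 44.6 against 20.8, 30.4 and 43.9 RPKM (0.02, SE 0.16). Uqcrb, which helps to form the ubiquinone site, was at 0.701, 1.97 and 10.2 against 0.979, 1.17 and 13.4 RPKM (0.04, SE 0.53).

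Complex IV had the largest median difference, with all 12 tested members lower over all libraries and 10 of 12 higher in replicates 4 to 7. Cox7c, a small subunit (chromosome 13, 86044816 to 86046904), was at 7.36, 8.89 and 14.5 RPKM in calcium-high and 9.04, 13.3 and 17.8 RPKM in calcium-low libraries. The groups overlapped, it was lower in 6 of 7 pairs, and the difference of -0.33 (SE 0.17) did not pass by limma (adjusted p = 0.797; 0.317 with the block). Cox6a1 was at 51.6 ± 21.6 against 55.3 ± 10.1 RPKM (-0.17, SE 0.21) and Cox4i1 at 47.5 ± 10.1 against 51.7 ± 11.2 RPKM (-0.12, SE 0.16). Cox7a2 was at 21.3 ± 7.01 against 24.6 ± 8.38 RPKM (-0.19, SE 0.21), and Cox8a at 41.8 ± 15.5 against 42.7 ± 8.67 RPKM (-0.09, SE 0.22; SD, n = 7). Cox7a2l, known as a factor of supercomplexes (joint assemblies of complexes), was at 46.8 ± 7.47 against 51.0 ± 5.61 RPKM (-0.13, SE 0.12), lower in 6 of 7 pairs. Whether its product is active in these mice was not tested. Their adjusted p by limma was 0.975 to 0.998.

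Complex V lay lower over all libraries in both of its parts. The 5 members of the F1 catalytic part had a median of -0.11 and the 10 of the membrane part and stalk a median of -0.10, with 15 of 15 lower. Both medians changed sign between the library sets, F1 from -0.49 in replicates 1 to 3 to 0.14 in replicates 4 to 7 and the membrane part from -0.45 to 0.13. Atp5b (chromosome 10, 128083273 to 128090391) was at 55.1, 71.9 and 89.8 RPKM in calcium-high and 66.2, 77.7 and 139 RPKM in calcium-low libraries, a difference of -0.26 (SE 0.17, limma adjusted p = 0.876; 0.425 with the block). Its 2 highest values, 114 and 139 RPKM, were calcium-low replicates 1 and 3, and in replicates 4 to 7 the difference was 0.00. Atp5e, the epsilon subunit of F1, was at 21.5, 53.4 and 112 against 33.6, 64.9 and 75.3 RPKM (-0.20, SE 0.33), lower in 6 of 7 pairs, with the value of 112 RPKM in calcium-high replicate 5.

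**Figure D5:**
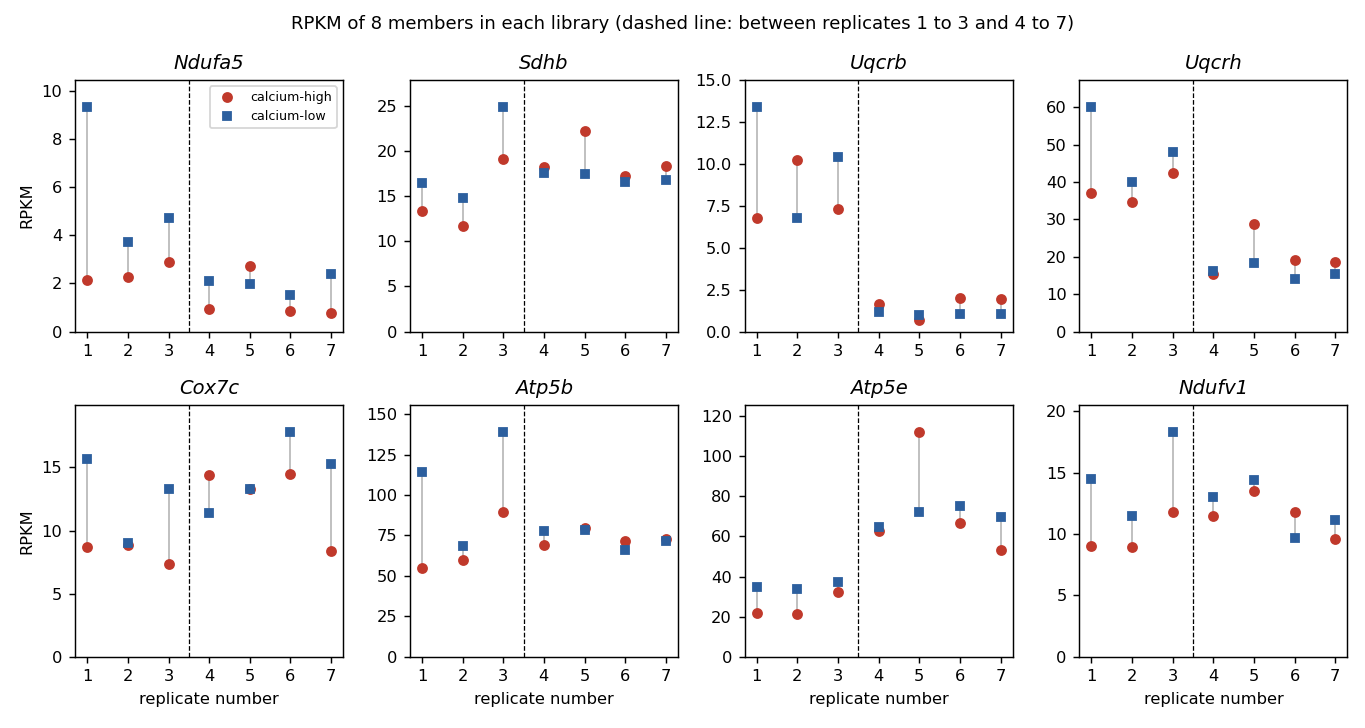
RPKM of 8 members in each library by replicate number, calcium-high as red circles and calcium-low as blue squares, joined within a pair, on linear axes from 0; the dashed line parts replicates 1 to 3 from 4 to 7. Uqcrb and Uqcrh lie higher and Atp5e lower in replicates 1 to 3 than in 4 to 7 in both groups, and Ndufa5 lies at 9.35 RPKM in calcium-low replicate 1.

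Subunits of the same complex differed in opposite directions between the library sets, which the rule did not use. With the calcium group as a term, limma called 32 of 84 members between replicates 1 to 3 and 4 to 7. That was a smaller share than the 48.8% of all genes called. Of these, 18 were higher and 14 lower in replicates 1 to 3. By complex the higher and lower calls were 9 and 4 in complex I, 1 and 0 in complex II, 3 and 1 in complex III, 1 and 3 in complex IV and 4 and 6 in complex V. The genes named in the next sentences were chosen after their values were seen. Uqcrb was at 6.78 to 13.4 RPKM in replicates 1 to 3, against 0.701 to 1.97 in replicates 4 to 7 (log2 difference 2.12, adjusted p = 3.88e-07). Uqcrh, the hinge protein of complex III, was at 34.8 to 60.2 against 14 to 28.7 RPKM (1.23, adjusted p = 1.99e-05). Atp5e went the other way, at 21.5 to 37.3 against 53.4 to 112 RPKM (-1.23, adjusted p = 2.29e-05).

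Partners within a complex could differ in this. In complex I the FMN-bearing Ndufv1 had a difference of 0.03 (limma adjusted p = 0.87), while its neighbour in the NADH-binding module, Ndufv2, was higher in replicates 1 to 3 by 1.02 (adjusted p = 4.05e-04, limma). Ndufs1 was higher by 0.98 and Ndufb3 by 0.97. In complex II, Sdha was higher by 0.61 (adjusted p = 5.60e-04) and Sdhb had a difference of -0.14 (adjusted p = 0.404). Cox8a was lower by -0.69 (adjusted p = 0.00134). The sets also differ in depth, whose part in these differences was not tested.

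None of the genes that build and serve the complexes was called by limma without the block. Their counts of lower genes stand beside 57.8% lower among all genes. Of 6 tested assembly factors of complex I outside the rule, 3 were lower, of 4 for complex II 2, of 6 for complex III (with its subunit Cyc1) 3, of 20 for complex IV 12 and of 5 for complex V (with its inhibitor Atpif1) 3. None of them was called by limma with or without the block. Atpif1, which holds back ATP hydrolysis, was at 18.1 ± 5.62 against 23.5 ± 10.8 RPKM (-0.31, SE 0.23, adjusted p = 0.304 with the block), lower in 6 of 7 pairs. It was singled out with its values in view. Of 9 transcription factors and coactivators of respiratory genes, 7 were lower and 0 called, and of 9 genes for the upkeep and transcription of mitochondrial DNA, 6 were lower and 0 called. The mitochondrial ribosome had 60 of 75 members lower and 0 called. Its median was -0.06 over all libraries, -0.31 in replicates 1 to 3 and 0.11 in replicates 4 to 7. The medians of all genes were -0.03, -0.20 and 0.11.

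One gene of these pathway lists was called with the block over all libraries and not without it. Coq10b, a coenzyme Q-binding protein, was at 2.80 to 12.3 RPKM in calcium-high and 5.17 to 13.1 RPKM in calcium-low libraries, lower in 7 of 7 pairs. Its log2 difference was -0.56 (SE 0.25, limma adjusted p = 0.727; 0.0364 with the block). With the block, the adjusted p was 0.0617 to 0.167 when any pair other than pair 3 was left out and 0.00397 without pair 3. It was also called without the block in replicates 4 to 7 alone, by limma-voom, and without calcium-high replicate 3 or both libraries of replicate 3. Of the other 10 tested genes for cytochrome c and coenzyme Q synthesis, 0 were called.

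Members with a promoter motif had medians nearer to 0 than those without it over all libraries. Members with the NRF1 motif had a median log2 difference of -0.09 (16 of 21 lower), and those without it -0.12 (47 of 51 lower). In replicates 1 to 3 these medians were -0.45 and -0.43, and in replicates 4 to 7 0.19 and 0.11. The ETS motif went with -0.07 (17 members) against -0.13 (55 without it). For the YY1 motif the medians were -0.08 (8 members) and -0.11 (64), and in replicates 1 to 3 -0.30 and -0.45. With any of the 3 motifs the median was -0.08 (31 of 38 lower), and with none -0.14 (32 of 34 lower). Sdha, whose window holds the NRF1 motif 3 times, had a difference of 0.03, and Ndufa5, which holds it too, -0.64. These are descriptions of small sets with no test.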

How the data were processed

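RNA of 100 sorted cells per library was measured in 14 libraries. The authors deposited one table per library, whose values were read as RPKM from the values themselves (the header names no unit). Per the submitters' processing notes, the builds were GRCm38 and mm10 and edgeR was among the tools; the aligner and annotation are not given in the sources used here, nor is the handling of reads that match several loci. Each of 9848 genes above 0 in all libraries resolved to whole reads within 0.02 reads (0 of 300 jittered genes did), which gave the depths. Labels were joined over all files (48714 of 48737; 23 were date serials).

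The 9921 genes that averaged at least 1 RPKM were tested by limma 3.58.1 (R 4.3.3) with a trend on log2(RPKM + 1). Tests were two-sided and adjusted over all these genes at 0.05. The test was checked on simulated reads that held no difference between library sets, pairs or outlying libraries, so the check does not cover these. Folds of low genes are understated by the pseudocount of 1. Fold changes are on the log2(RPKM + 1) scale, high minus low. Same-numbered libraries deviated together from their group means (7 of 7 pairs correlated, at 0.384 to 0.715, above the 0.1 set for pairing). The difference between library sets enters these deviations, so the correlations cannot show pairing by number. Fits with the number as a block are given beside those without it. Only 5 of 14 libraries correlated best with their own number, and what a number and its library set share cannot be told apart. Alternatives were other scalings, pseudocounts, filters, library sets, limma-voom on recovered reads with library quality weights, and left-out libraries. Genes named are members called in either fit, the highest, most positive, most negative and smallest-p member of each complex, and a list of main subunits and isoforms. The members and lists were chosen with earlier results of these data known. Tables were made with Python 3.11.15, numpy 2.4.6 and pandas 2.3.3, figures with matplotlib 3.10.9. Coordinates are GRCm38.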

Additional observations from a re-analysis of the deposited data

Results flagged for a closer look

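In 60 groups of 7 libraries, 9 had a highest library whose gap to the next, as a share of the range, exceeded Dixon's 95% critical value. Chance gives at most about 1 in 20 for separate, normally distributed groups. The groups here shared libraries, and the other libraries were at 0 for Cox6a2, so that rate is no measure for this count. Calcium-low replicate 3 was far above the other calcium-low libraries for Sdhb (24.9 RPKM against 14.8 to 17.6), Uqcrfs1 (16.7 against 5.90 to 9.81), Coq10b (13.1 against 5.17 to 6.88) and the mean of complex II (4.65 log2(RPKM + 1) against 3.88 to 4.02). Calcium-high replicate 3 was far above its group for Coq10b (12.3 RPKM against 2.80 to 4.07) and Cox7a1 (1.14 against 0 to 0.281). For Ndufa5 the value of 9.35 RPKM in calcium-low replicate 1 stood above all others of the group, whose highest was 4.72 RPKM. Cox6a2 was above 0 in 1 library of each group, at 0.104 RPKM in calcium-high replicate 4 and 0.044 RPKM in calcium-low replicate 5. The difference between calcium-high and calcium-low HSCs was more negative in replicates 1 to 3 than in 4 to 7 for Cox4i1 (by -0.81 on the log2 scale), Ndufb7 (-1.11) and Ndufaf2 (-0.91), by an interaction in limma with the replicate block, but not without the block or with median-of-ratios scaling.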

How the results depend on the processing

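Over all libraries no member was called under any scaling, pseudocount or filter tried, by limma-voom, or without any 1 library or pair. The share of all genes called in these settings ran from 0% to 7.19% (limma-voom). With the block it was 2.91% under median-of-ratios scaling, 3.18% under upper-quartile scaling and 3.04% without pair 3. In replicates 4 to 7 with the replicate block, limma called 2 members higher, against 5.06% of all genes. Its count of members was 0 in every other setting. Among the members and pathway genes, the replicate block on all libraries changed the call of Coq10b only. In the difference between library sets, 0 members were called without the replicate block, 3 with it and 0 with it and median-of-ratios scaling; without each pair in turn the count ran from 0 to 43. Medians of complexes I to V were -0.44, -0.21, -0.38, -0.55 and -0.45 in replicates 1 to 3 and 0.14, 0.09, 0.15, 0.12 and 0.13 in replicates 4 to 7, with and without the block. The cause was not tested, and both fits use fewer samples.

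Signs turned for some named genes. In replicates 1 to 3, with and without the replicate block, Ndufs5 was at -0.44, Sdha -0.20, Uqcr11 -0.28 and Uqcrb -0.27. With median-of-ratios scaling there, Cox7a2l was at 0.00, Ndufs5 -0.22, Sdhc 0.10, Sdhd 0.01, Uqcr11 -0.04 and Uqcrb -0.04. In replicates 4 to 7, with and without the replicate block, Atp5b was at 0.00, Atp5e 0.01, Cox4i1 0.23, Cox6a1 0.22, Cox7a2 0.21, Cox8a 0.17, Ndufs1 0.26, Sdhb 0.14, Sdhc 0.01, Sdhd 0.04 and Uqcr10 0.17. With median-of-ratios scaling there, Cox4i1 was at 0.09, Cox6a1 0.08, Cox7a2 0.07, Cox8a 0.03, Ndufs1 0.15, Sdhb 0.01 and Uqcr10 0.04. Over all libraries Ndufs1 was at 0.03 with median-of-ratios scaling (with and without the replicate block), 0.02 with a pseudocount of 0.1, 0.05 with upper-quartile scaling (likewise with the block) and 0.27 by limma-voom, where Cox4i1 was at 0.06 and Cox8a at 0.00. Sdhc was at 0.00 with upper-quartile scaling with and without the block, and Uqcrb at -0.02 with a pseudocount of 5. Without both libraries of replicate 3, Ndufs1 was at 0.10 and Sdhd at 0.03. Fits within a set with another scaling or the block, upper-quartile scaling with the block, the fit without replicate 3 and the blocked interaction were chosen after seeing the data.

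Leaving out 1 library or pair, the medians ran from -0.18 to -0.02 in complex I, -0.12 to 0.03 in II, -0.16 to 0.00 in III, -0.23 to -0.04 in IV and -0.18 to -0.04 in V. Signs turned in Cox7a2 (-0.38 to 0.03), Cox8a (-0.20 to 0.05), Ndufs1 (-0.12 to 0.20), Ndufs5 (-0.02 to 0.31), Sdha (-0.06 to 0.18), Sdhb (-0.13 to 0.02), Sdhc (-0.11 to 0.02), Sdhd (-0.19 to 0.03), Uqcr11 (-0.11 to 0.10) and Uqcrb (-0.19 to 0.34). Depth gave at least 10 reads to each tested member in each library.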
